A study of Mus musculus with 14 samples.

Results

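The genes described here are the 4 tissue inhibitors of metalloproteinases, Timp1, Timp2, Timp3 and Timp4, the 2 proteases that TIMP2 is best known to act on, Mmp2 and Mmp14, and the membrane-anchored inhibitor Reck. They were chosen by symbol from the 49315 Ensembl genes of the count table, which gives 7 members, and all 7 were abundant enough to be tested. Bulk RNA-seq was run on cultured primary microglia, brain-resident macrophages, with 7 libraries from TIMP2 KO and 7 from pups of WT genotype. The labels give the strain as C57BL/6, and the methods name a C57Bl/6J background. Each library came from an independent isolation of cells from the pooled forebrains of 5 pups aged P6 to P7, with both sexes in a pool, and the cells were selected with CD11b microbeads and plated before collection. The comparison asks what the loss of TIMP2 does to microglia before adulthood. The KO is a global, conventional deletion in which exon 1 of Timp2 is targeted, so every cell of the pup carries it, and a pool does not show how single pups differ. Both genotypes went through the same selection and culture, and no library came from uncultured cells.

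TIMPs are small secreted proteins that block metalloproteinases by inserting their first residues into the catalytic cleft, where the amino group and carbonyl of the first cysteine bind the zinc ion. TIMP2 has an additional role: a cell surface complex of MMP14 with TIMP2 captures the inactive precursor of MMP2, and a neighbouring MMP14 that is free of inhibitor cuts it, so that TIMP2 can either promote or block MMP2 activation. TIMP3 binds to the extracellular matrix and also inhibits ADAM proteases such as ADAM17, TIMP1 is a weak inhibitor of MMP14, and RECK is a membrane-anchored glycoprotein that restrains MMP2, MMP9 and MMP14.

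The stretch of each TIMP gene that encodes the inhibitory end, and the zinc sites of both proteases, show the parts of the proteins that meet. The sequences were read from the GENCODE transcripts of GRCm38 and are printed 5′ to 3′ on the gene's own strand. In the TIMP genes the capitals mark the codons of the first and the third residue of the mature inhibitor, both cysteines. For Timp2 the whole coding part of exon 1 is shown (chr11:118354961-118355090, reverse strand), because this is the targeted exon and holds both codons. It is 130 of the 660 coding bases of the main annotated transcript, which has 5 exons.
Timp2, exon 1: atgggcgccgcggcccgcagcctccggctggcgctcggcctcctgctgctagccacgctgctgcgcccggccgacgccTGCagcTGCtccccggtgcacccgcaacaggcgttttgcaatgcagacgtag
Timp1, exon 2: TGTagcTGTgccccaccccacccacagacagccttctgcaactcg
Timp3, exon 1: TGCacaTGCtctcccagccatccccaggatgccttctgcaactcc
Timp4, exon 1: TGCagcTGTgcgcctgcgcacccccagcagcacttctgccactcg
The Timp1 stretch lies at chrX:20871111-20871155 on the forward strand, that of Timp3 at chr10:86300923-86300967 on the forward strand and that of Timp4 at chr6:115251647-115251691 on the reverse strand. Across the whole coding sequence, pairs of TIMP genes were between 50.6% and 60.4% identical. Across their full main transcripts, untranslated parts included, the longest identical run was between 10 and 18 bases. In the proteases the capitals mark the codons of the 3 histidines that hold the catalytic zinc.
Mmp2, exon 8: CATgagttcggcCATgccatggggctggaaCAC
Mmp14, exon 5: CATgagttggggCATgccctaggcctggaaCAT
The Mmp2 site lies at chr8:92839279-92839311 and the Mmp14 site at chr14:54437627-54437659, both on the forward strand. Reck, for which no stretch is shown, spans chr4:43875530-43944806 on the forward strand. A second annotated Timp2 transcript begins upstream of this exon 1 and has its 430 coding bases in its exons 3 to 5. The counts are per gene, so the exon that a read came from is not known here.

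The libraries held between 38875344 and 48070236 counted reads. Of 15700 genes tested with edgeR's quasi-likelihood test, 3 passed an adjusted p of 0.05, and all 3 were lower in KO. They were Timp2 and 2 overlapping genes near it on the same chromosome, Engase (log2 fold change −1.18, adjusted p = 9.19e-06) and Gm11748 (−1.50, adjusted p = 0.000182). The cultures carried the markers of the labelled cell type: the summed level of 10 microglia markers was between 9157 and 11720 CPM (read counts scaled to a common library size) in all 14 libraries. RNA of other cells was present too, and the astrocyte markers spanned a 9.21-fold range over the libraries, a spread that is given beside the results it touches. Throughout, each test took a pooled culture as its unit. The p-values of fold changes weigh a difference against the spread between these cultures, and those of correlations come from permuting them.

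Timp2 was the most abundant of the 7 genes in both genotypes, and its messenger RNA fell in KO cultures without disappearing. In WT, Timp2 ranged from 397 to 495 CPM with a median of 476 CPM. In KO, it ranged from 119.5 to 129 CPM with a median of 121 CPM. The 7 KO libraries lay together far below all WT libraries, and the groups did not overlap. KO libraries averaged 122 ± 3.14 CPM and WT libraries 463 ± 36.8 CPM (SD, n = 7 each), so that 26.4% of the WT level remained. The log2 fold change was −1.92 with an SE of 0.0464 (edgeR, adjusted p = 1.53e-12), and it stayed between −1.95 and −1.88 in every alternative fit and with any 1 library left out. Timp2 was the only one of the 7 members that passed, or whose KO and WT libraries did not overlap. Over all genes tested, 0.0191% passed, and 0.0828% did not overlap in either direction, or 0.0764% with KO lower. With DESeq2, 0.0955% of the genes passed, and 0.166% with the replicate number as a block, and Timp2 was again the only member among them. Since Timp2 is the deleted gene, its lower level checks the labels, and all 14 libraries matched theirs. In a bulk culture, fewer cells of a type and less RNA per cell cannot be told apart.

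The remaining Timp2 level was uniform. Between 4781 and 5455 reads were counted on Timp2 in a KO library, against 18107 to 24027 in a WT library. The coefficient of variation of CPM over the 7 KO libraries was 2.57%, where counting alone would give 1.40%, and over the 7 WT libraries it was 7.94%, where counting alone would give 0.693%. The KO library farthest from the others was replicate 4, the highest, with 129 CPM against 119.5 to 123 CPM in the other 6. Set against the WT library of the same number, the KO level was between 24.6% and 30.5%.

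**Figure D1:**
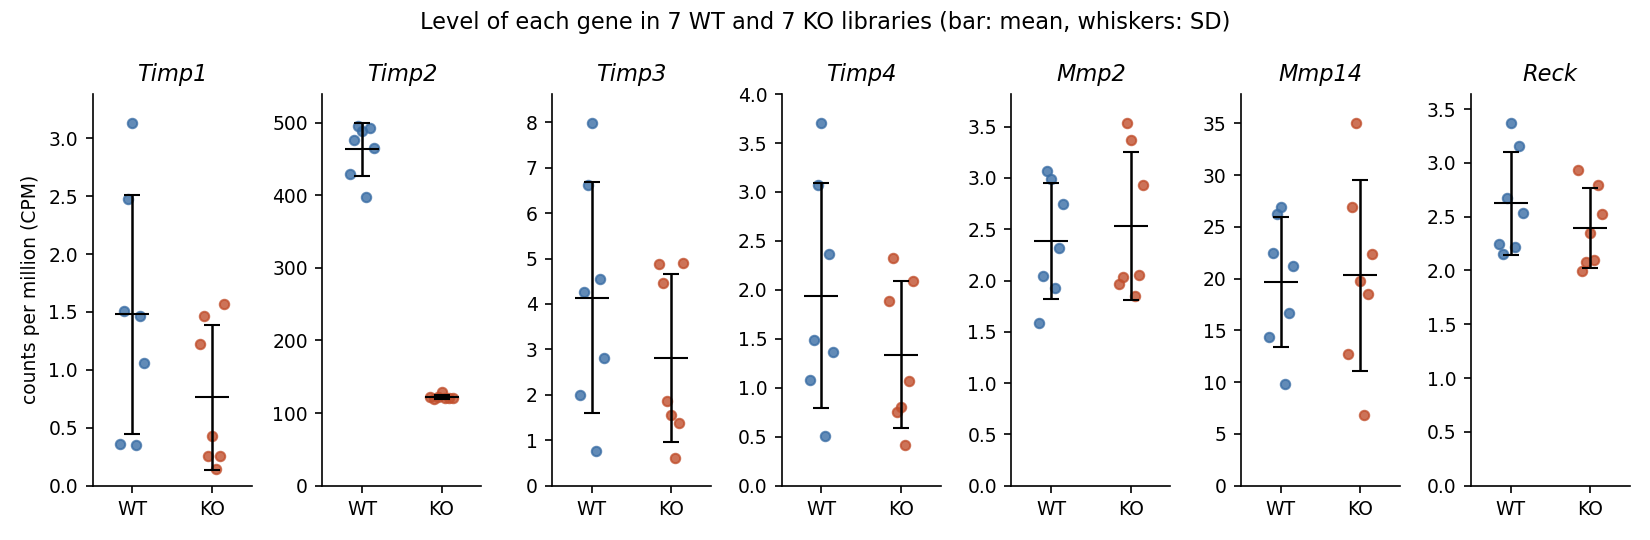
Level of each gene in CPM (vertical axis, linear from 0, its own scale in each panel) in 7 WT and 7 KO libraries, 1 point per library, with the mean as a bar and the SD as whiskers. The Timp2 panel has 2 separate groups, 397 to 495 CPM in WT and 119.5 to 129 CPM in KO, while in the other 6 panels the genotypes overlap.

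Levels of different genes were compared as CPM per kilobase of annotated exon, joined over all transcripts of a gene. This length was 8144 bases for Timp3 and 5960 for Mmp14, whose longest transcripts have 4722 and 3238 bases. The order and the fold gaps between genes hold for this length only, and no other length was tried for them. In WT cultures Timp2 stood at 119 ± 9.44 CPM per kilobase (SD, n = 7), above 97.9% of the tested genes that had a length. Mmp14 followed at 3.30 ± 1.06 CPM per kilobase, a 36.0-fold gap with no overlap between libraries. Below it came Timp1 (1.67 ± 1.17), Mmp2 (0.707 ± 0.168), Reck (0.549 ± 0.1005), Timp3 (0.509 ± 0.313) and Timp4 (0.329 ± 0.195 CPM per kilobase). Neighbours in this lower stretch overlapped in their ranges, and Reck exceeded Timp3 in 4 of 7 WT libraries only, whereas Timp3 exceeded Timp4 in 7 of 7. With this length, the KO cultures had the same order of means. There, Timp2 stood at 31.4 ± 0.806 CPM per kilobase, still above 90.4% of tested genes and 9.22-fold above Mmp14. The order of Timp1 and Mmp2 was not stable in KO, where Timp1 was the higher of the pair in 3 of 7 libraries.

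**Figure D2:**
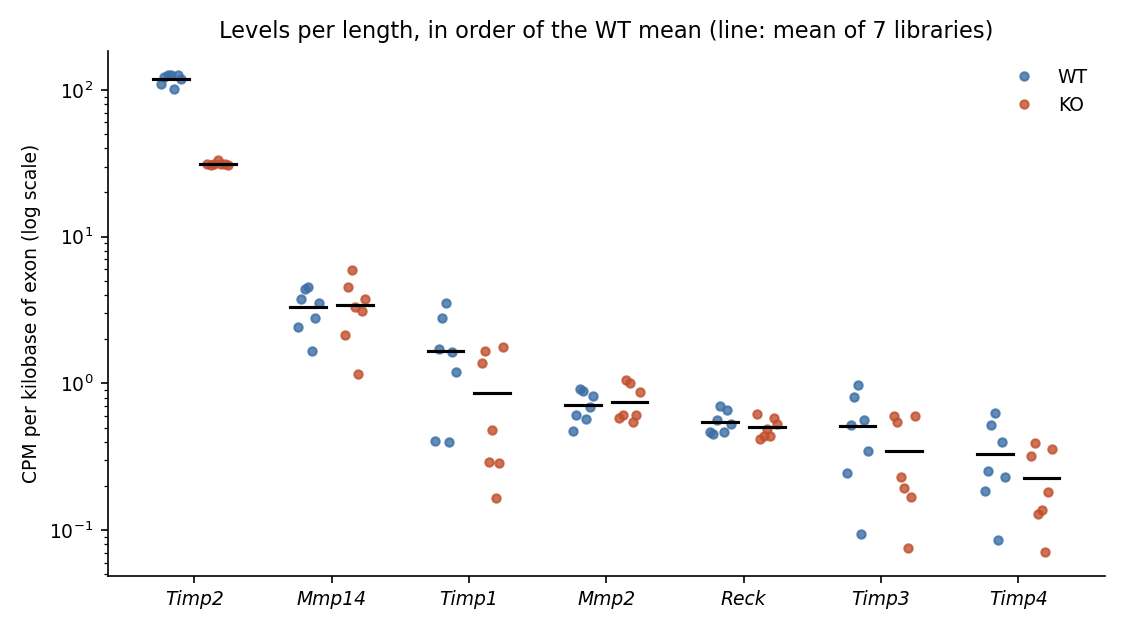
CPM per kilobase of exon on a log axis for the 7 genes, ordered by their WT mean, with 1 point per library and a line at the mean of 7 libraries. Timp2 is the highest gene in both genotypes (means of 119 in WT and 31.4 in KO), and Mmp14 follows at about 3 in both.

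None of the other TIMP genes passed the test, and each had a lower mean in KO cultures. Timp1, an inducible inhibitor that is also known as a growth factor-like signal, ranged in WT from 0.351 to 3.13 CPM with a median of 1.46 CPM, and in KO from 0.148 to 1.56 CPM with a median of 0.427 CPM. Both genotypes contained libraries with very little Timp1, and the groups overlapped. Its log2 fold change was −0.95 with a 95% confidence interval from −2.19 to 0.29 (adjusted p = 0.943).
Timp3, the matrix-bound inhibitor, ranged in WT from 0.768 to 7.99 CPM with a median of 4.27 CPM, and in KO from 0.617 to 4.89 CPM with a median of 1.86 CPM. Here 3 KO libraries, replicates 1, 2 and 7, lay between 4.47 and 4.89 CPM, well inside the WT range, and the other 4 lay at or below 1.86 CPM. The log2 fold change was −0.56 with an interval from −1.63 to 0.51 (adjusted p = 0.943). Timp4, the TIMP of most restricted tissue distribution, ranged in WT from 0.505 to 3.71 CPM with a median of 1.49 CPM, and in KO from 0.419 to 2.32 CPM with a median of 1.07 CPM. Its groups overlapped as those of Timp3 did, with a log2 fold change of −0.53 and an interval from −1.46 to 0.39 (adjusted p = 0.943). These intervals bound a rise in KO at 0.29, 0.51 and 0.39 on the log2 scale for Timp1, Timp3 and Timp4, and they do not show that the levels were equal. The counts behind these intervals were low, from 6 to 131 reads per library for Timp1, 25 to 334 for Timp3 and 17 to 155 for Timp4. Timp3 and Timp4 lie on the strand opposite to the synapsin genes Syn3 and Syn2, with which they share 1733 and 90 bases of exon. The strand setting of the counting is not given in the sources used here, so reads in these bases cannot be assigned with certainty. In WT, Syn3 averaged 0.251 CPM and Syn2 2.11 CPM.

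Taken as a sum per kilobase, Timp1, Timp3 and Timp4 together reached 1.43 ± 1.05 CPM per kilobase in KO (SD, n = 7, from 0.314 to 2.72) and 2.503 ± 1.66 in WT (from 0.575 to 5.14). The sum of all 4 TIMP genes was 32.9 ± 1.05 CPM per kilobase in KO and 121 ± 10.8 in WT. Timp2 made up 95.7% ± 3.10 of this sum in KO and 98.0% ± 1.22 in WT. The remaining Timp2 transcript was thus the larger share of TIMP messenger RNA in every KO library, from 91.9% to 99.0%. Because the gene is deleted, these shares are a description with no test, and the share says nothing of the protein that the transcript could give. By immunoblotting and immunocytochemistry, the paper found no detectable TIMP2 protein in early postnatal KO microglia.

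Neither target protease passed the test, with KO means at 103% (Mmp14) and 106% (Mmp2) of those in WT. Mmp14, the membrane-type protease that activates MMP2, ranged in WT from 9.85 to 26.9 CPM with a median of 21.2 CPM, and in KO from 6.86 to 35.1 CPM with a median of 19.8 CPM. The KO libraries held both the lowest and the highest value of all 14. The log2 fold change was 0.05 with an interval from −0.59 to 0.68 (adjusted p = 0.988). Mmp2, the gelatinase that TIMP2 escorts to MMP14, ranged in WT from 1.59 to 3.07 CPM with a median of 2.32 CPM, and in KO from 1.85 to 3.54 CPM with a median of 2.05 CPM. The groups overlapped, with a log2 fold change of 0.09 and an interval from −0.32 to 0.50 (adjusted p = 0.968). The directions of both were not stable, since Mmp14 was −0.020 with the replicate number as a block and Mmp2 was −0.012 without KO replicate 3. Reck had the narrowest spread among the genes of low level. It ranged in WT from 2.16 to 3.37 CPM with a median of 2.54 CPM, and in KO from 1.99 to 2.93 CPM with a median of 2.35 CPM, with overlapping groups, a log2 fold change of −0.13 and an interval from −0.41 to 0.15 (adjusted p = 0.943).

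The ratio of inhibitor to protease transcript was lower in KO. Timp2 over Mmp14, per kilobase, was 11.7 ± 7.37 in KO (from 5.35 to 27.0) and 39.3 ± 12.3 in WT (from 27.7 to 61.7), and the groups did not overlap. Timp2 over Mmp2 was 44.5 ± 11.1 in KO (from 30.0 to 56.7) and 175 ± 35.4 in WT (from 140 to 234). Mmp14 over Mmp2 was 4.51 ± 1.74 in KO and 4.65 ± 1.03 in WT. The first 2 ratios contain the deleted gene and have no test.

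**Figure D3:**
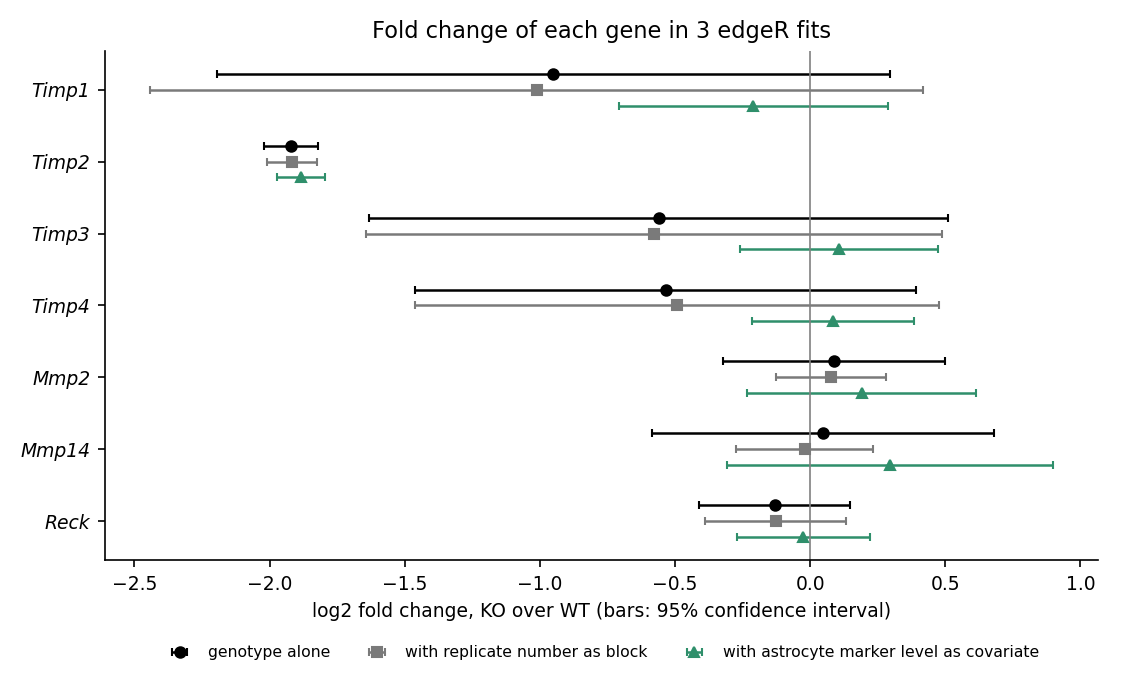
Log2 fold change of each gene, KO over WT (horizontal axis), with 95% confidence intervals, in 3 edgeR fits: genotype alone (circles), with the replicate number as a block (squares) and with the summed astrocyte marker level as a covariate (triangles). Timp2 lies between −1.92 and −1.88 in all 3 fits, and each interval of the other 6 genes includes 0.

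Timp1, Timp3 and Timp4 moved together from library to library, and with the RNA of astrocytes, the glial cells that support neurons. The astrocyte marker list (10 genes, Gfap the highest at a mean of 22.2 CPM, none at 0 in any library) was between 32.9 and 163 summed CPM in KO, with a median of 57.2, and between 37.3 and 303 in WT, with a median of 107. All 10 markers had a lower mean in KO, and none passed the test. After the genotype means were taken out, log2 CPM of Timp3 followed the log2 astrocyte sum over the 14 libraries with r = 0.956 and rho = 0.960 (permutation within genotype, p = 1e-05 for each, the smallest that 100000 permutations can give). Timp4 had r = 0.967 and rho = 0.952 (permutation p = 1e-05 and 2e-05), and Timp1 had r = 0.941 and rho = 0.938 (permutation p = 1e-05 for each). Over the 28 relations of 7 genes with 4 marker lists, the adjusted p of r was 9.33e-05 for each of the 3. Without the 2 libraries farthest from the median astrocyte level, r was 0.957 for Timp3, 0.963 for Timp4 and 0.925 for Timp1. The relation held within each genotype, with r of 0.956, 0.952 and 0.939 within KO and 0.964, 0.983 and 0.962 within WT for Timp3, Timp4 and Timp1. Over the 14 libraries of both genotypes, the largest gap on the log2 astrocyte scale was 17.3% of the range. Within KO, however, the libraries lay in 2 groups. Replicates 1, 2 and 7 were between 112 and 163 summed CPM, and the rest between 32.9 and 57.2. Replicates 1, 2 and 7 also had the highest Timp1, Timp3 and Timp4 levels of KO. How far r within KO rests on this split was not tested.

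Markers of mural cells and fibroblasts, the cells around vessels and in the meninges, moved with the same 3 genes. Their list (10 genes, Acta2 the highest, Lum at 0 in some libraries) was between 5.55 and 25.4 summed CPM in KO and between 6.87 and 40.6 in WT, and 9 of 10 had a lower mean in KO. The correlation was 0.890 for Timp3 (rho = 0.846), 0.851 for Timp1 (rho = 0.851) and 0.808 for Timp4 (rho = 0.798), with adjusted permutation p of 0.00014, 0.00218 and 0.00555 for r. Without the 2 libraries farthest from the median of this list, r was 0.836, 0.781 and 0.699. These 6 were the only relations of the 28 that passed for r over all libraries. Oligodendrocyte lineage markers (10 genes, 8 with a lower mean in KO, none at 0) were between 139 and 166 summed CPM in KO and between 147 and 183 in WT. Rank correlations of the 3 genes with this list also had an adjusted permutation p under 0.05, from 0.0084 to 0.0138, while those of r were 0.0836 to 0.0946. Endothelial markers, the fourth list, had a lower mean in KO for 4 of 10 genes, with Emcn at 0 in some libraries, and were between 74.9 and 102 summed CPM in KO and between 73.4 and 91.6 in WT. No member passed with this list. Neuron markers (10 genes, Snap25 the highest, none at 0) were between 13.1 and 32.0 summed CPM in KO, with a median of 17.4, and between 15.2 and 40.4 in WT, with a median of 23.8. Their mean was lower in KO for 9 of 10, none passed the test, and their relation to the members was not tested. With the astrocyte level as a covariate, the log2 fold changes of Timp1, Timp3 and Timp4 were −0.21, 0.11 and 0.08, against −0.95, −0.56 and −0.53 without it, and none passed in either fit. The part of other cell types in the lower means of these 3 genes was not tested beyond this covariate.

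**Figure D4:**
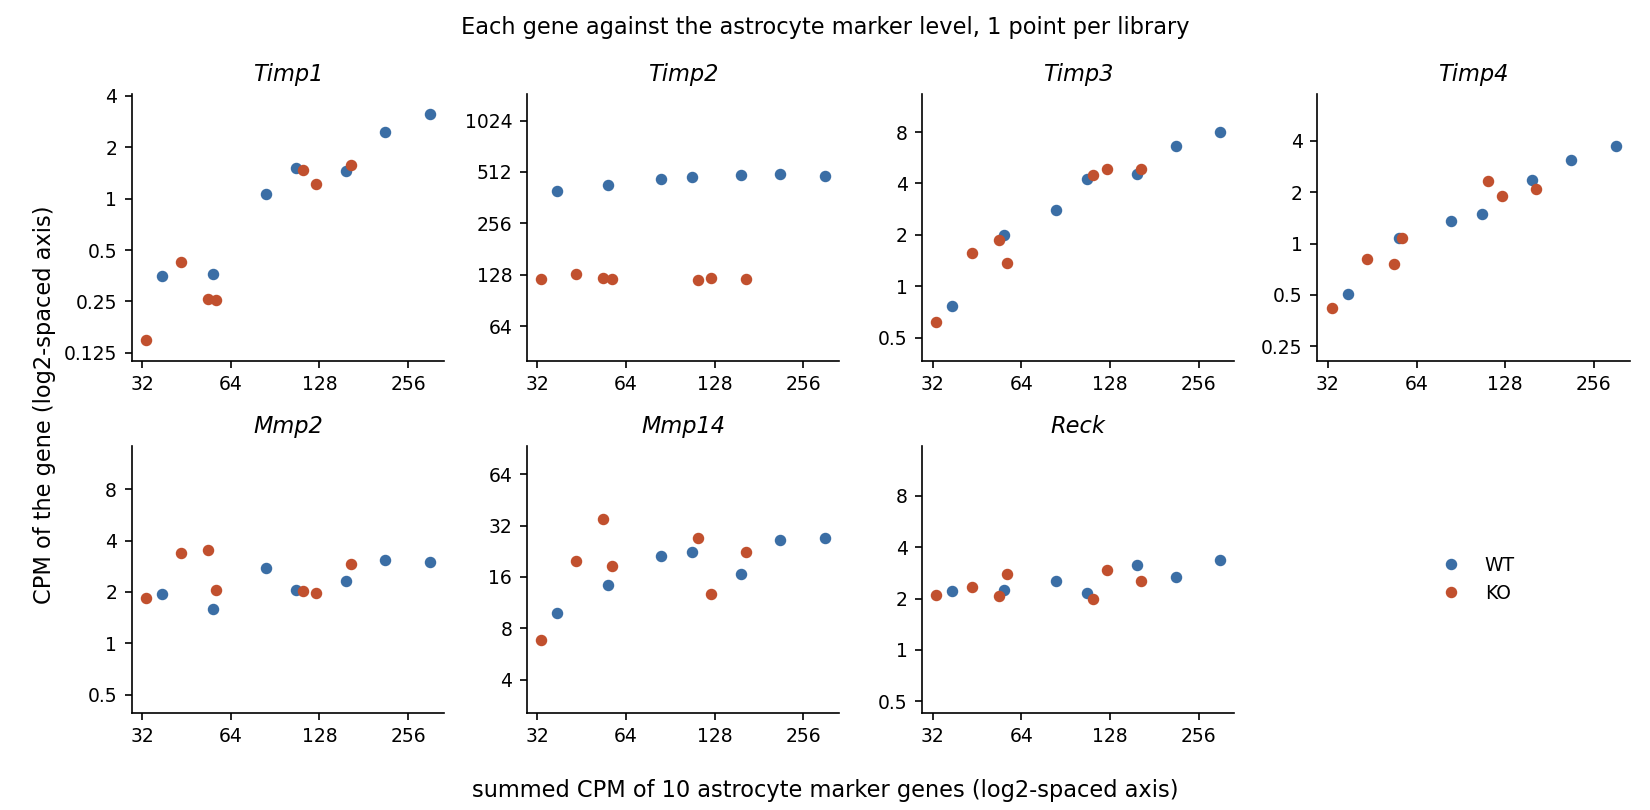
CPM of each gene against the summed CPM of 10 astrocyte marker genes, both on log2-spaced axes, 1 point per library, with the same span of fold on every vertical axis. Timp1, Timp3 and Timp4 climb with the astrocyte level in both genotypes (r from 0.941 to 0.967), KO Timp2 stays level, and Mmp2, Mmp14 and Reck are more scattered.

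For Timp2, whose level the deletion sets apart, the relation was read within each genotype. Within WT, where it varied by 1.25-fold, it followed the astrocyte level with r = 0.910 and rho = 0.893 (exact permutation p = 0.00139 and 0.0123, adjusted p of r 0.00972 over 28 relations, n = 7), and r was 0.950 without the 2 farthest libraries. WT replicates 5 and 1 had both the lowest Timp2 and the lowest astrocyte levels. These 2 libraries also had the highest summed border macrophage markers of WT (6 genes, Mrc1 the highest). They stood at 713 and 549 CPM, against 332 to 523 CPM in the rest. The relation of Timp2 to border macrophage markers was not tested. Within KO, the remaining Timp2 had r = −0.438 and rho = −0.536 with the astrocyte level (exact permutation p = 0.361 and 0.236, n = 7). The difference between the genotypes in this relation was not tested. For Mmp14, the WT libraries gave r = 0.859 (exact permutation p = 0.0131, adjusted p = 0.0479, n = 7), with r = 0.637 without the 2 farthest libraries, and the KO libraries gave r = 0.347 (exact permutation p = 0.456, n = 7). Over all 14 libraries, neither Mmp14 (r = 0.556, rho = 0.556), Reck (r = 0.620, rho = 0.565) nor Mmp2 (r = 0.371, rho = 0.354) passed after adjustment, with permutation adjusted p of 0.0946, 0.089 and 0.35 for r. The relation of Mmp14 was not particular to astrocyte markers. With the mural and fibroblast list, its r was 0.855 within WT (exact permutation p = 0.0137, adjusted p = 0.0479) and 0.473 within KO. Over all 14 libraries it was 0.618 (permutation adjusted p = 0.0836).

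Among the members themselves, the 3 pairs of Timp1, Timp3 and Timp4 had r between 0.930 and 0.966 and rho between 0.899 and 0.978 (n = 14, permutation within genotype, adjusted p = 7e-05 for r in each over 21 pairs). With 2 libraries left out these r were between 0.928 and 0.938. Mmp2 and Mmp14 also moved together, with r = 0.686 and rho = 0.714 (permutation p = 0.00881 and 0.0104, adjusted p = 0.0463 for r), and r = 0.628 without the 2 libraries farthest from the median of Mmp2. No other pair passed.

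Mmp14 and Mmp2 had a second pattern, which was looked at after the values had been seen. KO and WT libraries that bear the same replicate number had similar levels of both genes. For Mmp14, number 5 had the lowest level in each genotype, 6.86 CPM in KO and 9.85 CPM in WT, while number 3 had 35.1 CPM in KO and 26.2 CPM in WT. For Mmp2, numbers 3, 4 and 7 were the 3 highest in both genotypes, from 2.93 to 3.54 CPM in KO and from 2.74 to 3.07 CPM in WT. Over the 7 numbers, the correlation of log2 CPM was r = 0.918 and rho = 0.786 for Mmp14 (exact permutation p = 0.00496 and 0.0480) and r = 0.908 and rho = 0.964 for Mmp2 (exact permutation p = 0.00794 and 0.00278). Adjusted over the 7 members, p of r was 0.0278 for both by exact permutation, and p of rho was 0.168 for Mmp14 and 0.0194 for Mmp2. This adjustment does not cover the choice of the pattern from the same values. Without the 2 numbers farthest from the median, r was 0.729 for Mmp14 and 0.791 for Mmp2. The other 5 members had r between −0.055 and 0.276, and the median over all tested genes was 0.244, with 12.2% of genes above 0.7. When the replicate number entered as a block, the SE of the log2 fold change was 0.112 for Mmp14 and 0.0900 for Mmp2, against 0.297 and 0.192 without it, and the fold changes were −0.020 (interval −0.27 to 0.23) and 0.08 (interval −0.13 to 0.28). What same-numbered libraries shared is not given in the sources used here.

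**Figure D5:**
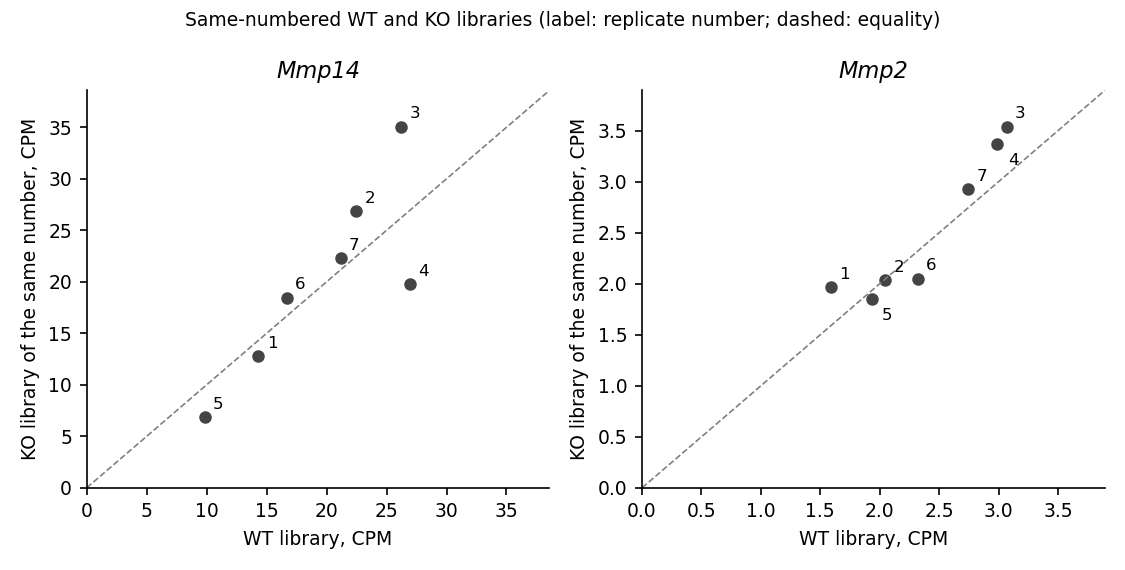
CPM of Mmp14 (left) and Mmp2 (right) in the KO library (vertical axis) against the WT library of the same replicate number (horizontal axis), both linear from 0, with 7 points labelled by number and a dashed line of equality. Points follow the line, with r = 0.918 for Mmp14 and r = 0.908 for Mmp2 on the log2 scale.

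Other genes of the pathway were read in 4 lists, and no gene of any list passed the test in either direction. Of 28 metalloproteinases other than the members, 24 were tested, and 17 had a log2 fold change below 0 and 7 above it, with a median of −0.06 beside 0.00 for all genes tested. The most abundant per length were Adam8, a protease of activated myeloid cells (986 ± 135 CPM in KO and 1076 ± 64.9 CPM in WT, SD, n = 7 each), and Adam9, a broadly expressed sheddase (319 ± 18.9 and 329 ± 20.8 CPM). Adam8 had the smallest p of the list (log2 fold change −0.13, SE 0.0724, adjusted p = 0.943). Mmp9, the gelatinase that RECK also restrains, averaged 4.70 ± 3.93 CPM in KO and 3.00 ± 2.02 CPM in WT, with 1 high library in each genotype. Mmp15 and Mmp17, membrane-type proteases like MMP14, had log2 fold changes of −0.62 and −0.68 with SE of 0.462 and 0.484.

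Of 24 genes for activation, receptors and clearance, 23 were tested, with 15 below and 8 above 0 and a median of −0.02. Lrp1, the endocytic receptor that clears complexes of proteases and inhibitors, was at 3711 ± 305 CPM in KO and 3723 ± 532 CPM in WT. Cd63, a tetraspanin known as a receptor for TIMP1, was at 924 ± 104 and 939 ± 67.7 CPM. The 4 genes with the smallest p were Thbs2, a matrix protein that helps clear MMP2 (log2 fold change −0.71, SE 0.329), the tetraspanins Cd82 (0.09, SE 0.0522) and Tspan12 (−0.80, SE 0.488), and Ptpn6, the phosphatase SHP-1 that TIMP2 signalling is reported to engage (0.10, SE 0.0632). All 4 had an adjusted p of 0.943 (edgeR), and Thbs2 was the only gene of the list with an unadjusted p under 0.05. Over all genes tested, 3.37% had such an unadjusted p.

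Of 17 other inhibitors of extracellular proteases, 13 were tested, with 11 below and 2 above 0 and a median of −0.26. Cst3, the cysteine protease inhibitor cystatin C, was at 1290 ± 73.6 CPM in KO and 1276 ± 97.7 CPM in WT, and Serpine2, an inhibitor of serine proteases, at 480 ± 84.2 and 487 ± 107 CPM. Serpina3n, a serpin of reactive astrocytes, had the smallest p (0.697 ± 0.570 CPM in KO, 2.10 ± 2.36 CPM in WT, log2 fold change −1.59, SE 0.681, edgeR adjusted p = 0.943). A2m, a broad protease trap, and Spock1, a matrix proteoglycan, had log2 fold changes of −1.11 and −0.39 and did not pass.

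Of 22 matrix substrates, 20 were tested, with 19 below 0 and 1 above it and a median of −0.40. None had an unadjusted p under 0.05, against 3.37% of all genes tested. Lama2, a laminin chain, Col4a1 and Col6a1, collagen chains, and Cx3cl1, the chemokine fractalkine that metalloproteinases shed, had log2 fold changes between −0.74 and −0.57. The abundant substrates Lgals3, the lectin galectin-3 (978 ± 229 CPM in KO and 1050 ± 210 CPM in WT), and Dag1, dystroglycan (139 ± 22.9 and 146 ± 10.46 CPM), had −0.10 and −0.07. With the astrocyte level as a covariate, the medians of the 4 lists in this order were 0.02, 0.02, −0.07 and −0.03, and that of all genes remained 0.00. Several of these genes are also expressed by astrocytes and mural cells, whose markers had lower means in KO, and their part in the medians was not tested further.

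The genes whose levels were most like each member, by Pearson's r of log2 CPM over 14 libraries with genotype means taken out, give the same division as a description. Timp3 had 606 genes with r above 0.9, Timp4 478 and Timp1 341. Closest to Timp3 were Ltbp1 (r = 0.993), Adamts5 (0.992) and Ddr1 (0.992). Closest to Timp4 were Rnd1 (r = 0.990), Pcdhgc5 (0.989) and Pcdh1 (0.987), and closest to Timp1 were Mlc1 (r = 0.971), Eml1 (0.971) and Chpf (0.970).
Mmp14 had 8 genes above 0.9, among them Gm16216 (r = 0.934) and Sfrp2 (0.926), and Mmp2 had 3, Cxcl10 (r = 0.951), Gm14150 (0.950) and Gm5620 (0.919). For Reck and Timp2 no gene reached 0.9. Reck was closest to Wfs1 (r = 0.886), Amt (0.862) and Pcdhb19 (0.855), and Timp2 to Gm45153 (r = 0.849), G0s2 (0.849) and Tmem200a (0.843), the latter 3 all under 1 CPM in WT.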

How the data were processed

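The authors trimmed paired-end reads of poly(A) libraries and mapped them to GRCm38. Per the submitters' processing notes, Trimmomatic 0.36, STAR 2.5.2b and featureCounts of Subread 1.5.2 were among the tools. The annotation release and the strand setting are not given in the sources used here. The count table that the authors deposited holds the unnormalized number of reads on each Ensembl gene. The genotype and replicate number were taken from the labels. GENCODE's GRCm38 annotation supplied gene names, exons and transcript sequences, and 49056 of 49315 genes matched it.

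Low counts were removed by filterByExpr (10 reads as minimum count, 15 as minimum total) and libraries scaled by TMM. The genotypes were tested in edgeR 4.0.16 (quasi-likelihood test, two-sided, under R 4.3.3), with Benjamini-Hochberg adjustment over all tested genes and a threshold of 0.05. The study modelled batch, which the sources used here do not give for each library, so genotype alone was fitted. CPM are scaled by TMM, and log2 CPM have a prior count of 1. Correlations were two-sided and tested by 100000 permutations within genotype, or by all orders where 7 values were compared (exact permutation), with scipy 1.17.1 and numpy 2.4.6 under Python 3.11.15. The members and gene lists were chosen with earlier results of these data known. All members are named, and from each list up to 4 genes with the smallest p and up to 2 with the highest WT level per length, every gene past the threshold and the 3 genes most like each member, apart from a few genes that are not reported here.

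Alternatives were DESeq2 1.42.0, other size factors, other filters, the replicate number as a block, the astrocyte marker level as a covariate and each library left out. Same-numbered libraries deviated together with r from −0.196 to 0.743, over 0.1 in 3 of 7 numbers, so the numbers were not taken to pair the libraries. Gene by gene, however, the median r between same-numbered libraries was 0.244, and 12.2% of tested genes were above 0.7. The fit with genotype alone leaves out what these libraries share. The closest pair of libraries still differed beyond counting error.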

Additional observations from a re-analysis of the deposited data

Results flagged for a closer look

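In 60 groups of 7 libraries checked (each named gene of the report's members and pathway lists, in each genotype), 5 had 1 library far from the others, measured by its gap to the nearest library as a share of the group's range. For normally distributed values, chance gives such a gap in about 1 in 20 groups. Whether the CPM of these genes are so distributed was not tested. For Timp2 in KO, replicate 4 was high at 129 CPM, against 119.5 to 123 CPM in the other 6. For Adam8 in KO, replicate 7 was high at 1270 CPM, against 875 to 1011 CPM. For Mmp17 in KO, replicate 1 was high at 0.816 CPM, against 0.0740 to 0.394 CPM. Mmp9 had a high library in each genotype, KO replicate 3 at 13.1 CPM against 1.38 to 5.68 CPM, and WT replicate 2 at 7.31 CPM against 1.14 to 3.11 CPM.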

How the results depend on the processing

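Timp2 passed, and no other member did, in all 22 alternatives, and no gene of the 4 pathway lists passed in any. The number of genes called was 3 to 4 with single libraries left out and 15 with DESeq2. The replicate block gave 3 genes with edgeR and 26 with DESeq2, and it changed no call among the members and lists. Only 1 of 7 KO libraries correlated best with the WT library of its own number. The log2 fold changes that turned sign were all small and none passed. They were Timp3 (0.11) and Timp4 (0.084) with the astrocyte covariate, and Mmp14 with the block (−0.020 in edgeR, −0.029 in DESeq2). With single libraries left out, Mmp14 ranged from −0.14 to 0.20, below 0 without KO replicate 2 or 3 or WT replicate 1 or 5, and Mmp2 from −0.012 to 0.16, below 0 without KO replicate 3. The cause was not tested. The other ranges were −1.22 to −0.66 for Timp1, −1.95 to −1.90 for Timp2, −0.75 to −0.32 for Timp3, −0.73 to −0.30 for Timp4 and −0.19 to −0.06 for Reck. The Timp2 share was 95.2% to 96.3% in KO and 97.8% to 98.5% in WT under other lengths and without single libraries. Between 5 and 8 marker relations passed. Differences in Timp1 smaller than its interval were not detectable. Its SE was 0.583, and 0.233 with the astrocyte covariate.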
